A study of Mus musculus with 7 samples.

Results

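The variable (V) genes of the immunoglobulin heavy chain, named Ighv in the mouse, were followed in bulk RNA of operated knees. The members were selected by a rule on raw counts: of the 55401 genes counted, 185 have a name that starts with Ighv, and the 108 of these with 10 or more counts in at least 2 of the 7 samples were selected. Their counts therefore describe which genes were detected and support nothing by themselves. By annotation 98 members were V genes and 10 were V pseudogenes. Of the 77 Ighv genes below the rule, 45 had no count in any sample. Just above it, Ighv8-6 had 13 as its second highest count, Ighv3-4 had 14 and Ighv1-43 had 15, and just below it, Ighv3-2, Ighv3-3 and Ighv1-30 each had 9. The members held between 99.2% and 99.8% of all Ighv counts of a sample.

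The study asked how knee joints without the calcium channel subunit TRPC1 respond to destabilization of the medial meniscus (DMM), an operation that induces osteoarthritis. RNA-Seq was performed on 4 WT and 3 Trpc1-/- samples of knee articular cartilage, all from male C57BL/6J mice operated on at 10 weeks of age and collected 2 weeks after DMM. WT mice were wild type at Trpc1, and Trpc1-/- mice carried the Trpc1 tm1Lbi allele, which lacks exon 8 in every cell, so that the loss was not restricted to cartilage. Each sample pooled the tissue of 2 to 3 mice, so that its Ighv counts mix several animals. Subchondral bone is named in the methods next to the cartilage. Library totals ranged from 52142451 to 118254070 counts. No unoperated knee was among the 7 samples, and the response to DMM itself could not be measured.

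During B cell development, the RAG recombinase joins one V gene to a D and a J segment, and the joined exon is spliced to the constant region, so that each B cell clone transcribes one productive heavy-chain V gene. Antibody-secreting plasma cells hold far more of this transcript than resting B cells, and a few plasma cell clones can therefore take a large part of the V gene RNA of a tissue. Bone marrow, where B cells arise and long-lived plasma cells reside, lies directly under the subchondral bone. Because the samples are bulk RNA, fewer B-lineage cells and less immunoglobulin RNA per cell cannot be told apart, nor can many cells that share a V gene be told from a few cells with high output.

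Levels of the deleted gene came first, as a check of the labels. Trpc1 (ENSMUSG00000032839) was at 4.83, 4.55, 4.77 and 4.33 CPM in WT replicates 1 to 4 and at 3.35, 3.79 and 3.04 CPM in Trpc1-/- replicates 1 to 3, where CPM is the TMM-normalized unit of expression. The groups did not overlap, in the direction of the labels, although gene-level counts do not isolate the missing exon and so check the labels only in part.

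Some libraries stood apart before any comparison of genotypes. WT replicate 1 had 2464 counts on Ighv genes, whereas WT replicates 2 to 4 had 17627, 22818 and 15750 and the Trpc1-/- samples had 19603, 15791 and 18209. Its library was also the smallest, but normalization for depth did not remove the gap, with 51.9 CPM in WT replicate 1 and between 160 and 200 CPM in the other 6 samples. The main comparisons below are therefore also given without it.

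WT replicates 2 and 3 had nearly the same Ighv use. The Bray-Curtis dissimilarity of their Ighv shares, the part of the counts that would have to move to another gene to make both samples alike, was 5.33%, against 22.5% to 37.4% in the other 20 pairs of samples. A chi-square of their Ighv counts was 2.09 per degree of freedom, compared with at least 10.9 in every other pair. It takes each count as independent, although both mates of a read pair may count, so that only the comparison between pairs is read here. For 100 of the 108 members, the 95% Wilson intervals of the share overlapped between these replicates, whereas this held for 44 to 71 members in the other pairs. The light-chain V genes (Igkv) showed the same, with a dissimilarity of 4.84% between WT replicates 2 and 3 and of at least 20.5% in the other pairs. The V genes of T cell receptors, which had few counts, gave 32.5% for this pair and 31.3% for the closest other pair, although their chi-square per degree of freedom was lowest for this pair (0.81 against at least 1.12). In all other tested genes, this pair was again the closest, at 3.31% against 4.88% for the next pair, with a chi-square of 28.7 per degree of freedom. The labels of these replicates hold different numbers, read here as mouse numbers. Because each sample pooled several mice, 1 number cannot name every animal of a pool. WT replicates 1 and 2 and all Trpc1-/- samples have numbers in the 1300s, and WT replicates 3 and 4 have numbers in the 1700s. Whether they share tissue or animals was not tested. They were kept as separate samples, as labelled, and the main comparisons are also given with both counted as 1 sample.

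**Figure D1:**
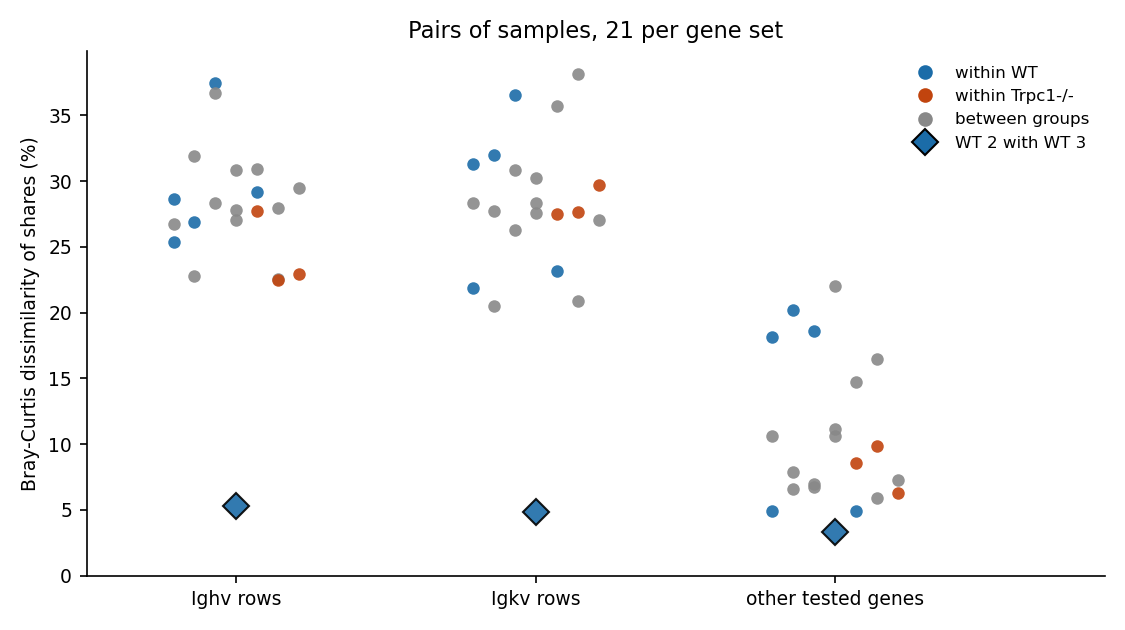
Bray-Curtis dissimilarity (%) between pairs of samples, calculated on shares of counts over the Ighv genes, the Igkv genes and the other tested genes. Each point is 1 pair, coloured by whether it lies within WT, within Trpc1-/- or between the groups; the diamond is WT replicate 2 with WT replicate 3, at 5.33%, 4.84% and 3.31%.

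The Ighv genes lie on chr12:113572927-116010093 in GRCm38, all members on the minus strand, and many are close copies of each other. Sequences are shown for the genes on which the comparisons turn, since similarity limits how well reads can be assigned. The first set is Ighv1-26, the gene with the smallest p-value among the members, with its 6 nearest relatives among the members. The stretch covers coding bases 121 to 240 (GENCODE M21, sense strand), and capitals mark bases that differ from Ighv1-26.
Ighv1-26: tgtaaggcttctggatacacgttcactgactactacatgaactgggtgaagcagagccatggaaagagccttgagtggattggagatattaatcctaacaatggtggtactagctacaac
Ighv1-18: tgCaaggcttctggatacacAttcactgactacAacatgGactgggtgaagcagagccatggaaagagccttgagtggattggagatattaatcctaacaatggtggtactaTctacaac
Ighv1-22: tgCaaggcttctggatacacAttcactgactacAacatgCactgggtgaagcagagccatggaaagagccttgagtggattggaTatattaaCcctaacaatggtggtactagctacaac
Ighv1-34: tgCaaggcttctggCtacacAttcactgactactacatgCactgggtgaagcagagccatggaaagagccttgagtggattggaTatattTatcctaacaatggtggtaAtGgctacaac
Ighv1-19: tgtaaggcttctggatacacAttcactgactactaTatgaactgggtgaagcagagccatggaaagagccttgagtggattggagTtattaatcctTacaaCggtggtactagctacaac
Ighv1-36: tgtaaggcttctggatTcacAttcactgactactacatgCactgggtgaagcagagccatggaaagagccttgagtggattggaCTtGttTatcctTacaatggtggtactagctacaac
Ighv1-39: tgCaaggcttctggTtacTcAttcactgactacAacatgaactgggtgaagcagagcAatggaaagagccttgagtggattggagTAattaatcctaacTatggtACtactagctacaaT

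Over their 351 coding bases, Ighv1-18 was 96.9% identical to Ighv1-26, Ighv1-22 and Ighv1-34 were 96.6% identical, Ighv1-19 was 96.3% identical, Ighv1-36 was 94.0% identical and Ighv1-39 was 92.9% identical. The longest stretch without a difference was 119 bases with Ighv1-34, which is longer than a 75-base read. Of all 75-base words in the Ighv1-26 transcript, 16.2% also occur in another Ighv transcript, in Ighv1-18 or Ighv1-34. For Ighv1-34 this was 19.1%, for Ighv1-18 10.9%, for Ighv1-19 6.92%, for Ighv1-22 1.44% and for Ighv1-36 and Ighv1-39 0%. Over the 108 members the median was 5.42%, and 36 members shared no word, whereas Ighv1-71 shared 97.2% of its words with Ighv1-62-2. Levels of members with shared words are uncertain, because the assignment of such reads was fixed in the authors' counting. The percentages count exact words of single reads and do not measure the extent of this uncertainty. How read pairs, or reads with mismatches, were assigned was not examined, also for members with 0% shared words.

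The second set is the other genes that ranked first in a sample, Ighv7-1, Ighv1-9 and Ighv9-3, over the aligned stretch (bases 121 to 246 in Ighv7-1), with differences from Ighv1-26 again in capitals. Ighv7-1 is the segment known as S107 or T15 from antibodies against phosphorylcholine.
Ighv7-1: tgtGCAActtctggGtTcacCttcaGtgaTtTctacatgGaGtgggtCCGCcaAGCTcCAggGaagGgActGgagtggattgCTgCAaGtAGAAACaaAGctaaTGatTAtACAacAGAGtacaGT
Ighv1-9: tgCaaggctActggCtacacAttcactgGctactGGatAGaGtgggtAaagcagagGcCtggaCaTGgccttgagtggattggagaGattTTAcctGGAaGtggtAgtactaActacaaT
Ighv9-3: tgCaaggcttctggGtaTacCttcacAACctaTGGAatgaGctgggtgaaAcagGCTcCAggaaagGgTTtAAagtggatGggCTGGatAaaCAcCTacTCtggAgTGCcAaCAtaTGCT

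The third set is Ighv2-9, the member with the lowest log2 fold change, with its 3 nearest relatives, and capitals mark differences from Ighv2-9.
Ighv2-9: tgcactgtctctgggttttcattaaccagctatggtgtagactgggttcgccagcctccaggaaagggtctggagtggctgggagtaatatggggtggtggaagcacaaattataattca
Ighv2-6-8: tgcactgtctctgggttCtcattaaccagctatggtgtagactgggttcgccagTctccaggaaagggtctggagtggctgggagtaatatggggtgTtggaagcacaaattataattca
Ighv2-3: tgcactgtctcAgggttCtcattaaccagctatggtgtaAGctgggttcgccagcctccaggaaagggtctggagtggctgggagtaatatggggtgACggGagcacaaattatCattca
Ighv2-6: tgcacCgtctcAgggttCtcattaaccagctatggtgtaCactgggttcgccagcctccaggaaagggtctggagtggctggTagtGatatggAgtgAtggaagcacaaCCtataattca

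Ighv7-1 and Ighv1-9 shared no 75-base word with another Ighv gene. Ighv9-3 shared 4.69% of its words and Ighv2-9 shared 2.78%, so that most positions in these genes are their own. Compared with Ighv1-26, Ighv7-1 differed in 145 of the aligned coding bases, Ighv9-3 in 123 and Ighv1-9 in 56.

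Over all 7 samples, the summed level of all Ighv genes did not separate the genotypes. It was 51.9, 167, 186 and 200 CPM in WT replicates 1 to 4 and 160, 170 and 186 CPM in Trpc1-/- replicates 1 to 3, or 151 ± 67.6 CPM for WT and 172 ± 13.2 CPM for Trpc1-/- (mean ± SD, here and below of 4 WT and 3 Trpc1-/- samples). The mean log2 difference between Trpc1-/- and WT samples was 0.36, within the pooled SD of 0.71. Without WT replicate 1 it was -0.10, so the direction rested on that library, and with WT replicates 2 and 3 as 1 sample it was 0.49. As a percentage of all counts, without TMM, the Ighv genes held 0.00473% in WT replicate 1 and 0.0177% to 0.0209% in WT replicates 2 to 4. In Trpc1-/- samples they held 0.0166% to 0.0171%, so that on this scale the groups did not overlap once WT replicate 1 was left out. As sums over selected genes, these levels were not tested.

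Use was spread over many genes in every sample. The effective number of genes, the number of equally used genes that would give the same Shannon entropy, was 59.8, 67.0, 65.6 and 48.8 in WT replicates 1 to 4 and 62.4, 51.4 and 55.8 in Trpc1-/- replicates 1 to 3. The lowest and the highest value were both WT, and the groups overlapped, at 60.3 ± 8.25 for WT and 56.5 ± 5.53 for Trpc1-/- (mean ± SD). The difference of -3.79 was -3.95 without WT replicate 1, -7.61 without WT replicate 4 and -1.79 with WT replicates 2 and 3 as 1 sample. It was -1.57 without WT replicate 2, -2.02 without WT replicate 3, -6.71 without Trpc1-/- replicate 1 and -1.22 without Trpc1-/- replicate 2. It was -3.43 without Trpc1-/- replicate 3. Only the difference without WT replicate 4 was larger in size than the pooled SD of 7.28.

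Between 12 and 18 genes sufficed to reach 50% of the Ighv counts of a sample. This number was 12 in WT replicate 4 and in Trpc1-/- replicate 2, which had the least even use, and 17 or 18 in the other WT samples. A count was found on 97, 123, 128 and 112 Ighv genes in WT replicates 1 to 4 and on 127, 123 and 125 in the Trpc1-/- samples. At the depth of WT replicate 1, 2464 counts, the expected numbers were 97.0, 111, 111 and 103 in WT and 111, 110 and 109 in Trpc1-/- samples, so that the gap of WT replicate 1 narrowed but it was still the lowest sample.

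No Ighv gene held more than 12.8% of the Ighv counts of any sample. The most used gene of WT replicate 1 was Ighv1-26, with 8.16% of the Ighv counts (95% Wilson interval 7.14% to 9.30%). In WT replicates 2 and 3 it was Ighv7-1, with 7.73% (7.34% to 8.13%) and 7.40% (7.07% to 7.74%). In WT replicate 4 it was Ighv1-9, with 12.8% (12.3% to 13.3%). Trpc1-/- replicate 1 was led by Ighv9-3 with 5.64% (5.33% to 5.97%), replicate 2 by Ighv7-1 with 9.11% (8.67% to 9.57%) and replicate 3 by Ighv1-26 with 7.85% (7.47% to 8.25%). Intervals of this kind, and the floor of 3 counts, cover counting error only and take each count as independent. The counts were estimated from the coverage by read pairs, so that both of the 2 mates of a fragment may count. The intervals may therefore be too narrow. The floor was 0.122% of the Ighv counts for WT replicate 1, and elsewhere it lay from 0.0131% to 0.0190%.

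The leading share averaged 9.02% ± 2.54 for WT and 7.53% ± 1.75 for Trpc1-/- (mean ± SD), with overlapping groups. The difference of -1.49 percentage points shrank to -0.23 without WT replicate 4, in which Ighv1-9 led, and to -0.54 without Trpc1-/- replicate 1. It was -1.78 without WT replicate 1, -2.28 without Trpc1-/- replicate 2 and -1.97 with WT replicates 2 and 3 as 1 sample. The summed share of the 5 most used genes differed in the other direction, by 2.52 percentage points, with 25.2%, 21.7%, 22.1% and 35.1% in WT and 24.3%, 32.9% and 28.4% in Trpc1-/- samples. This difference was 5.54 without WT replicate 4, 4.64 without Trpc1-/- replicate 1, 0.33 without Trpc1-/- replicate 2 and between 1.08 and 2.58 without 1 of the others. With WT replicates 2 and 3 as 1 sample it was 1.14. Exon lengths of the members lie between 329 and 480 bases (median 353), and the same gene led each of the 7 samples when counts were divided by exon length.

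**Figure D2:**
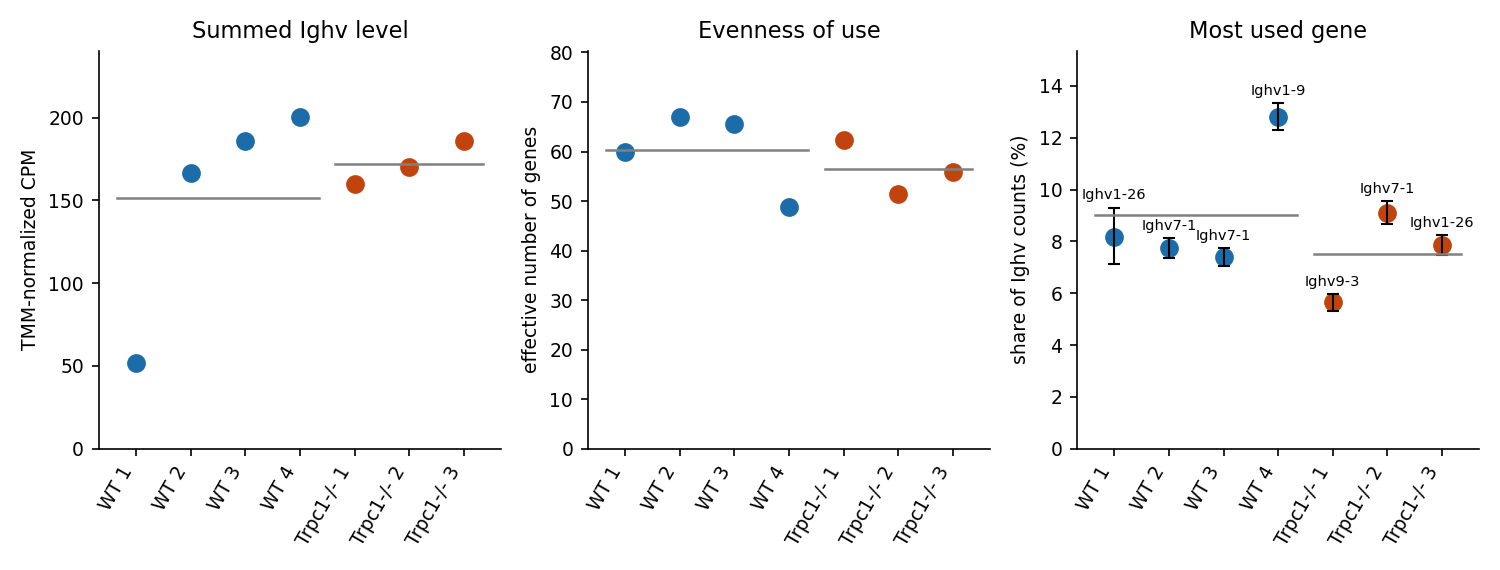
Summed Ighv level (CPM), effective number of Ighv genes and share (%) of the most used Ighv gene in each sample. Points are samples, grey lines are group means and bars on the shares are 95% Wilson intervals; WT replicate 1 is low in level at 51.9 CPM, and WT replicate 4 has the highest leading share at 12.8%.

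Over all samples, 32 members had a mean share of at least 1%, 62 lay between 0.1% and 1%, and 14 lay under 0.1%. The 10 most used members were Ighv7-1, Ighv1-26, Ighv1-9, Ighv8-8, Ighv1-53, Ighv9-3, Ighv1-81, Ighv1-82, Ighv1-55 and Ighv1-18. Together they took between 32.3% and 45.3% of the Ighv counts of a WT sample and between 33.5% and 42.2% of those of a Trpc1-/- sample. Ighv7-1 had the highest mean share, at 6.21%, 7.73%, 7.40% and 4.58% in WT replicates 1 to 4 and 5.37%, 9.11% and 5.72% in Trpc1-/- replicates 1 to 3. Its groups overlapped, at 6.48% ± 1.42 for WT and 6.73% ± 2.07 for Trpc1-/- (mean ± SD).

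Several members were high in 1 library alone. Ighv1-9 had 12.8% in WT replicate 4, 4.21 times the next highest sample, against 2.46% to 3.04% in the other WT samples and 0.975% to 2.95% in Trpc1-/- samples. In the same library Ighv8-8 stood at 7.26%, against 1.71% to 1.92% in the other WT samples, but Trpc1-/- replicates 1 to 3 reached 2.77%, 4.66% and 6.65%. Ighv5-9 had 1.83% there and between 0.203% and 0.461% elsewhere.

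Ighv14-3 had 4.70% of the Ighv counts (95% Wilson interval 4.38% to 5.04%) in Trpc1-/- replicate 2 and between 0.337% and 0.974% in every other sample. Its relative Ighv14-2 had 4.55% (3.79% to 5.44%) in WT replicate 1 and between 0.555% and 1.52% elsewhere. The intervals of these peaks did not overlap those of any other sample. In CPM, Ighv14-3 was again highest in Trpc1-/- replicate 2 (7.99 CPM), but Ighv14-2 had 2.36 CPM in WT replicate 1 and 3.04 CPM in WT replicate 4. Its peak was thus one of share alone, in a library with few Ighv counts.

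Ighv13-2 differed, since it was high in 2 libraries, WT replicates 2 and 3, with 1.36% and 1.59%. It had 0.365% in WT replicate 1, 0.127% in WT replicate 4 and 0.255%, 0.272% and 0.214% in the Trpc1-/- samples. Its log2 fold change (logFC) of -1.77 (SE 0.92) thus rested on the pair of libraries with like Ighv use. Ighv13-2 also passed the filter for testing, over 1 CPM in 2 or more samples, through WT samples alone.

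**Figure D3:**
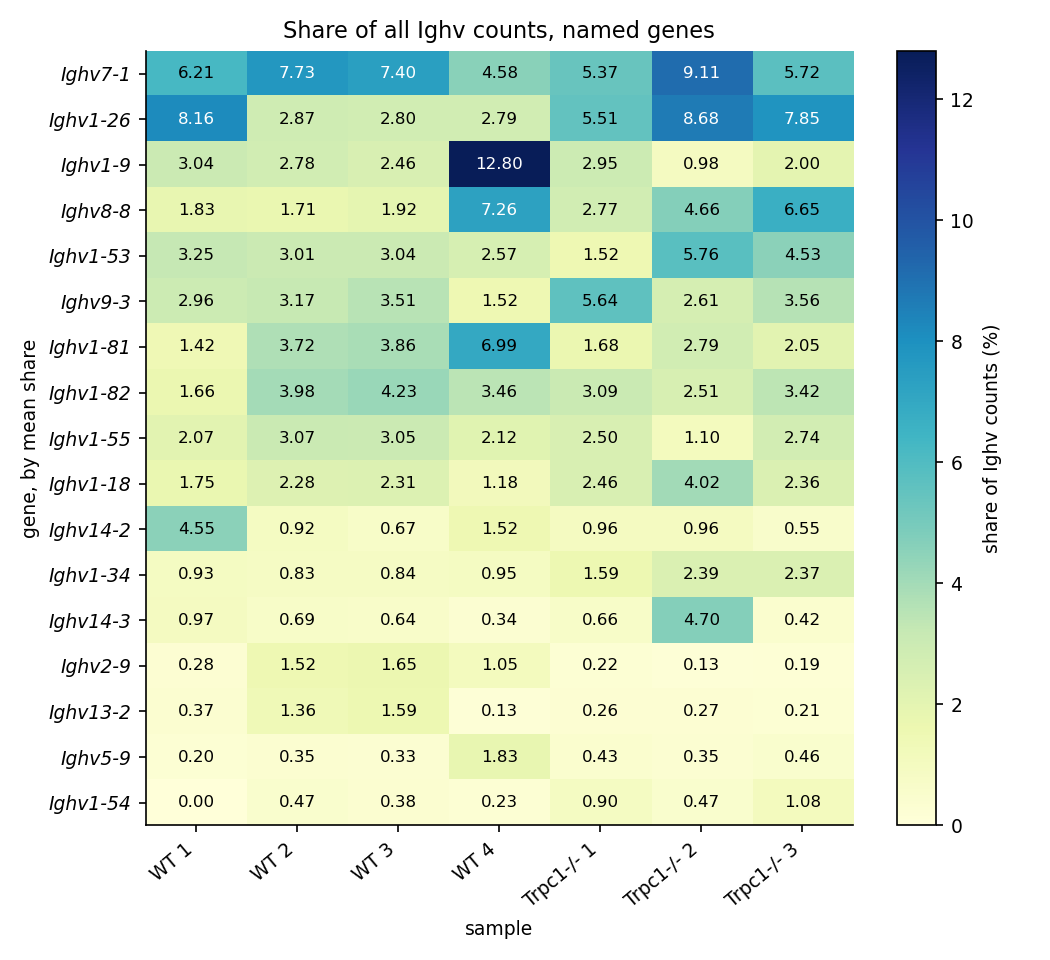
Share of all Ighv counts (%) of the named members, ordered by mean share, in each sample; darker cells are higher shares. Ighv1-9 at 12.8% in WT replicate 4, Ighv14-3 at 4.70% in Trpc1-/- replicate 2 and Ighv14-2 at 4.55% in WT replicate 1 stand out.

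Members were then compared between the genotypes in a fit over all genes that passed a filter of over 1 CPM in 2 or more samples. This kept 64 of the 108 members, and 44 were too low to test. By the quasi-likelihood test of edgeR with Benjamini-Hochberg adjustment, 0 of the 64 had an adjusted p under 0.05, as did 0 of all 16429 tested genes (0%). At an unadjusted p under 0.05 there were 10 members (15.6%), 7 higher and 3 lower in Trpc1-/- samples, against 10.0% of all tested genes. Of these 10, 5 had passed the filter through the samples of 1 group alone, among them all 3 lower ones. Of the 52 members that passed through both groups, 9.62% had an unadjusted p under 0.05, near the 9.72% of all such genes. DESeq2 with default settings called 3 members (4.69%), Ighv1-26, Ighv1-34 and Ighv2-9, against 1.79% of all tested genes. Expression did not overlap between the groups for 7 members (10.9%), all of them higher in Trpc1-/- samples, against 13.6% of all tested genes. The direction was limited by WT replicate 1, the lowest sample in CPM for 55 of the 64 members. These 55 could not be without overlap and lower in Trpc1-/- samples. The filter bears on this count, since 12 of the 64 members (18.8%) passed it through the samples of 1 group alone, against 1.8% of all tested genes. Of the 7, this held for Ighv14-1, Ighv1-4 and Ighv1-54, which were above 1 CPM in Trpc1-/- samples alone, and 4 passed through both groups. By WT samples alone, 8 members were admitted. In share of Ighv counts, 10 of the 64 did not overlap, 5 higher and 5 lower in Trpc1-/- samples. Because higher shares of some genes lower those of others, this balance cannot decide on the common direction in CPM. Only 4 members were without overlap on both scales. Shares of Ighv counts do not exist for other genes, and this count has no background.

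Of the 64 members tested, 38 had a logFC above 0 and 26 below. The median was 0.12, against -0.0088 over all tested genes. It was -0.17 without WT replicate 1 and -0.0078 without Trpc1-/- replicate 3. It was 0.28 without WT replicate 2, 0.38 without WT replicate 3, 0.13 without WT replicate 4, 0.027 without Trpc1-/- replicate 1 and 0.049 without Trpc1-/- replicate 2. With WT replicates 2 and 3 as 1 sample it was 0.32, and with the numbers in the 1300s alone, WT replicates 1 and 2 against the 3 Trpc1-/- samples, 0.71. The members' logFC had an SD of 0.85.

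The calls depended on the libraries as well. Without WT replicate 1, edgeR called 1 member (1.56%), Ighv2-9, among 52 genes (0.32% of all tested genes). Without WT replicate 1, DESeq2 called 15 of 64 members (23.4%), against 5.49% of all tested genes. Of these, 5 were higher and 10 lower in Trpc1-/- samples, and 5 of the 15 had passed the filter through 1 group alone in the fit of all samples. Without WT replicate 4 it called 3 members, against 1.72% of all tested genes, and these were Ighv1-26, Ighv1-34 and Ighv8-8. Without Trpc1-/- replicate 1 it called 2, Ighv1-26 and Ighv14-1, against 0.513%. It called Ighv1-26 alone without WT replicate 2 (0.380% of all tested genes), WT replicate 3 (0.820%), Trpc1-/- replicate 2 (2.27%) or Trpc1-/- replicate 3 (0.226%), and with WT replicates 2 and 3 as 1 sample (0.551%). Ighv1-26 was called in all 10 DESeq2 fits that were run and Ighv1-34 in 4. Ighv2-9, Ighv8-8 and Ighv14-1 were each called in 2, and 11 further members in 1.

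Ighv1-26 (ENSMUSG00000094546, chr12:114788372-114788805) had the smallest p-value among the members. It was at 4.24, 4.79, 5.19 and 5.60 CPM in WT replicates 1 to 4 and at 8.82, 14.8 and 14.6 CPM in Trpc1-/- replicates 1 to 3. Every Trpc1-/- sample was above every WT sample, with 4.95 ± 0.582 CPM for WT and 12.7 ± 3.39 CPM for Trpc1-/- (mean ± SD). Its logFC of 1.36 (SE 0.19) had a Benjamini-Hochberg adjusted p of 0.305 by the quasi-likelihood test of edgeR and 3.78e-07 by DESeq2. When WT replicate 1 was left out, the logFC was 1.29, with an adjusted p of 0.0566 by the quasi-likelihood test of edgeR with Benjamini-Hochberg adjustment, and with WT replicates 2 and 3 as 1 sample it was 1.36.

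As a share of Ighv counts, the picture was less clear. Ighv1-26 held 8.16%, 2.87%, 2.80% and 2.79% in WT replicates 1 to 4 and 5.51%, 8.68% and 7.85% in Trpc1-/- replicates 1 to 3. WT replicate 1 thus lay among the Trpc1-/- samples, while its CPM was close to that of the other WT samples. In CPM, WT replicate 1 was the lowest sample for 55 of the 64 members tested. WT replicates 2 to 4 were close to each other and below all Trpc1-/- samples.

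Of the 6 nearest relatives of Ighv1-26, 4 had a logFC above 0 and 2 below. Ighv1-34 was at 0.485, 1.39, 1.56 and 1.90 CPM in WT and at 2.54, 4.06 and 4.42 CPM in Trpc1-/- samples (logFC 1.44, SE 0.41; Benjamini-Hochberg adjusted p = 0.406 by the quasi-likelihood test of edgeR and 0.0393 by DESeq2). Its shares did not overlap either, at 0.889% ± 0.0592 for WT and 2.12% ± 0.458 for Trpc1-/- (mean ± SD), and WT replicate 1 with 0.933% was among the WT samples.

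Ighv1-22 had a logFC of 0.97 (SE 0.32) and Ighv1-39 one of 0.95 (SE 0.40), and neither overlapped between the groups in CPM or in share. Ighv1-39 held 1.18%, 1.24%, 1.24% and 1.24% of the Ighv counts in WT replicates 1 to 4 and 2.51%, 1.99% and 1.89% in Trpc1-/- replicates 1 to 3, and it shared no 75-base word with Ighv1-26. Ighv1-18 had a logFC of 0.81 (SE 0.46), with 2.84 ± 1.53 CPM for WT and 5.06 ± 1.56 CPM for Trpc1-/- (mean ± SD). Ighv1-19 had a logFC of -0.62 (SE 0.49) and Ighv1-36 one of -0.25 (SE 0.58), both with overlapping groups. Ighv1-36 passed the filter through WT samples alone. Adjusted p-values of Ighv1-22, Ighv1-39, Ighv1-18, Ighv1-19 and Ighv1-36 were 0.430, 0.496, 0.558, 0.654 and 0.885 by the quasi-likelihood test of edgeR with Benjamini-Hochberg adjustment.

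When WT replicate 1 was left out, the logFC was 1.18 for Ighv1-34, 0.76 for Ighv1-22, 0.68 for Ighv1-39, 0.53 for Ighv1-18, -0.90 for Ighv1-19 and -0.57 for Ighv1-36. The next relatives in rank, Ighv1-20 and Ighv1-31 (both 92.3% identical), were too low to test. Ighv1-20 was higher in Trpc1-/- samples, at 0 to 0.106 CPM in WT and 0.147 to 0.431 CPM in Trpc1-/- samples, whereas Ighv1-31 was at 0.295 to 0.643 CPM in WT and 0.256 to 0.302 CPM in Trpc1-/- samples. Likeness to Ighv1-26 thus went with either direction.

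Summed over the 6 nearest relatives, the share was 8.16%, 9.30%, 9.08% and 5.98% in WT replicates 1 to 4 and 11.2%, 11.5% and 10.3% in Trpc1-/- replicates 1 to 3. The relatives were taken in order of identity, but their number was set with the values known, and the sum is a description. How far reads shared with Ighv1-26 contribute to it was not tested beyond the shared words given above.

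**Figure D4:**
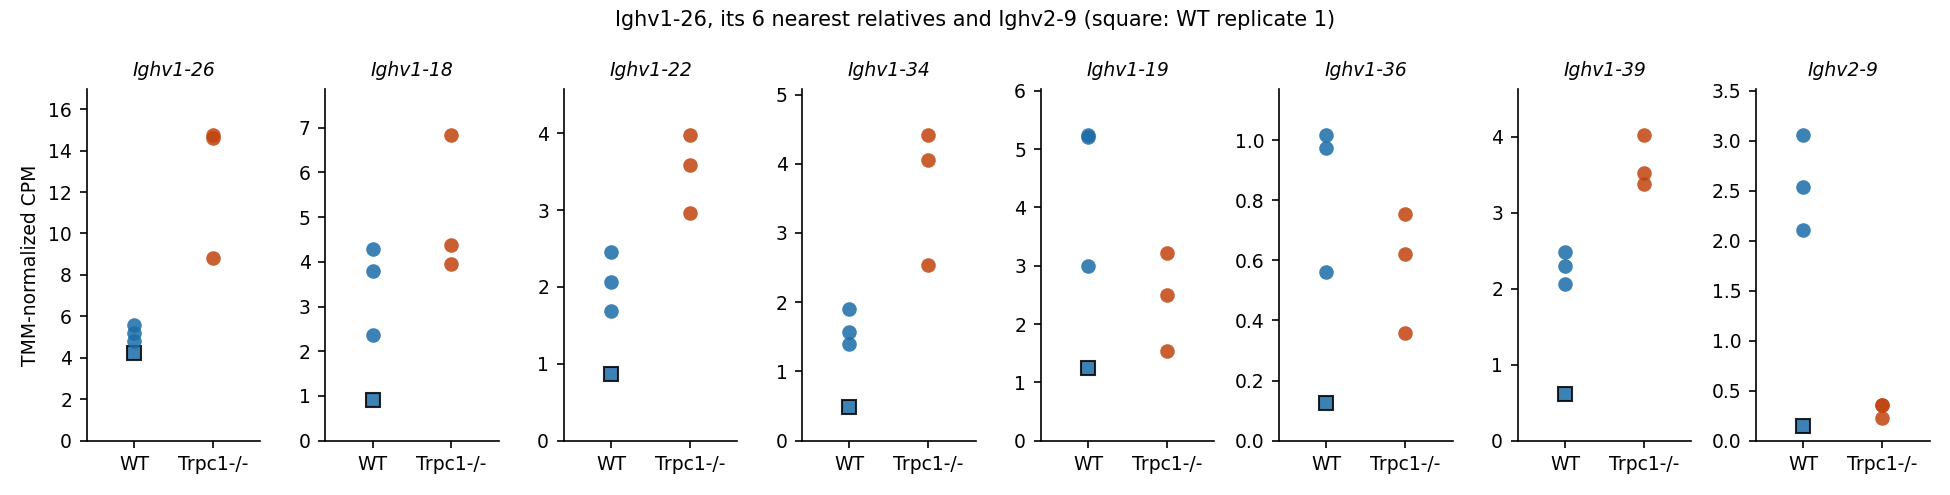
TMM-normalized CPM of Ighv1-26, its 6 nearest relatives and Ighv2-9 in WT and Trpc1-/- samples, each point 1 sample and each panel with its own axis from 0; the square is WT replicate 1. Ighv1-26 lies at 4.24 to 5.60 CPM in WT and 8.82 to 14.8 CPM in Trpc1-/- samples, and Ighv2-9 is low in WT replicate 1 as in the Trpc1-/- samples.

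Ighv2-9 (chr12:113879096-113879541) had the lowest logFC of the members tested. It was at 0.148, 2.54, 3.06 and 2.11 CPM in WT replicates 1 to 4 and at 0.359, 0.226 and 0.358 CPM in Trpc1-/- replicates 1 to 3. WT replicate 1 lay below the Trpc1-/- samples and the other 3 WT samples far above them. Its logFC of -2.65 (SE 0.81) had a Benjamini-Hochberg adjusted p of 0.409 by the quasi-likelihood test of edgeR and 0.0328 by DESeq2. Ighv2-9 passed the filter through WT samples alone, the group in which it was high. Without WT replicate 1 the logFC was -3.02, with an adjusted p of 0.00828 by the quasi-likelihood test of edgeR with Benjamini-Hochberg adjustment. As a share, WT replicate 1 had 0.284% from 7 counts, with a Wilson interval of 0.138% to 0.585%. This overlapped the intervals of all Trpc1-/- samples, which reached up to 0.301%, and lay below those of the other WT samples. The pattern of WT replicates 2 and 3 enters here as well, with 1.52% and 1.65%, but WT replicate 4 had 1.05%.

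Of the other members at the ends of the ranking, some rested on 1 library. Ighv14-3 had the highest logFC (1.87, SE 0.80), which came from Trpc1-/- replicate 2 alone. Ighv1-54 had a logFC of 1.48 (SE 0.77), with 0, 83, 86 and 37 counts in WT and 177, 74 and 197 counts in Trpc1-/- samples, where the 0 in WT replicate 1 allows a share of up to 0.122%. Ighv1-9 had a logFC of -1.43 (SE 0.89), which came from WT replicate 4. Ighv14-1 had a logFC of 1.34 (SE 0.36), with 0.433 ± 0.0607 CPM for WT and 1.10 ± 0.505 CPM for Trpc1-/- (mean ± SD), and its groups did not overlap in CPM but did in share. Ighv1-54 and Ighv14-1 passed the filter through Trpc1-/- samples alone.

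By family, the genes named Ighv1, the J558 group, held most counts in every sample, between 53.4% and 60.3%, and averaged 56.4% ± 2.01 for WT and 56.6% ± 3.49 for Trpc1-/- (mean ± SD). They make up 56 of the 108 members. The Ighv7 family, with 3 members, held 5.59% to 8.93% in WT and 6.27% to 10.0% in Trpc1-/- samples, most of it from Ighv7-1. The Ighv2 family held 3.77%, 6.54%, 6.82% and 4.01% in WT replicates 1 to 4 and 3.52%, 2.39% and 3.40% in Trpc1-/- replicates 1 to 3. Ighv2-9 is one of its 8 members, and the group means were 5.29% ± 1.62 for WT and 3.11% ± 0.620 for Trpc1-/- (mean ± SD). The high values were those of WT replicates 2 and 3, the pair with like Ighv use, and WT replicates 1 and 4 were close to the Trpc1-/- samples. The mean difference of -2.18 percentage points was -2.68 without WT replicate 1 and -1.72 with WT replicates 2 and 3 as 1 sample. The Ighv15 family held 0% to 0.0701% in WT and 0.0769% to 0.127% in Trpc1-/- samples, but the 0 in WT replicate 1 allows up to 0.122%, so that overlap could not be judged.

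The Ighv11 family, whose Ighv11-2 is known from B-1 cells that bind phosphatidylcholine, held 1.05% to 1.70% in WT and 1.19% to 1.99% in Trpc1-/- samples. The single Ighv12 member, Ighv12-3, held between 0% and 0.540% in WT and between 0.0253% and 0.198% in Trpc1-/- samples. Pseudogenes held 3.21%, 2.20%, 2.04% and 1.55% of the Ighv counts in WT replicates 1 to 4 and 1.77%, 2.27% and 2.09% in Trpc1-/- replicates 1 to 3.

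Along the locus, genes near the D segments are joined preferentially in early precursors, and distal genes need contraction of the locus. The 92 genes nearest to the D segments include 52 members, and the 93 distal genes include 56. The D-proximal genes held 44.3%, 46.8%, 46.3% and 46.6% of the Ighv counts in WT replicates 1 to 4, a narrow range, and 46.9%, 40.7% and 36.4% in Trpc1-/- replicates 1 to 3. Trpc1-/- replicate 1 was above every WT sample and replicates 2 and 3 were below. The mean difference was -4.65 percentage points, against a pooled SD of 3.45, and it was -5.20 without WT replicate 1, -4.46 with WT replicates 2 and 3 as 1 sample, -2.19 without Trpc1-/- replicate 3 and -7.44 without Trpc1-/- replicate 1.

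**Figure D5:**
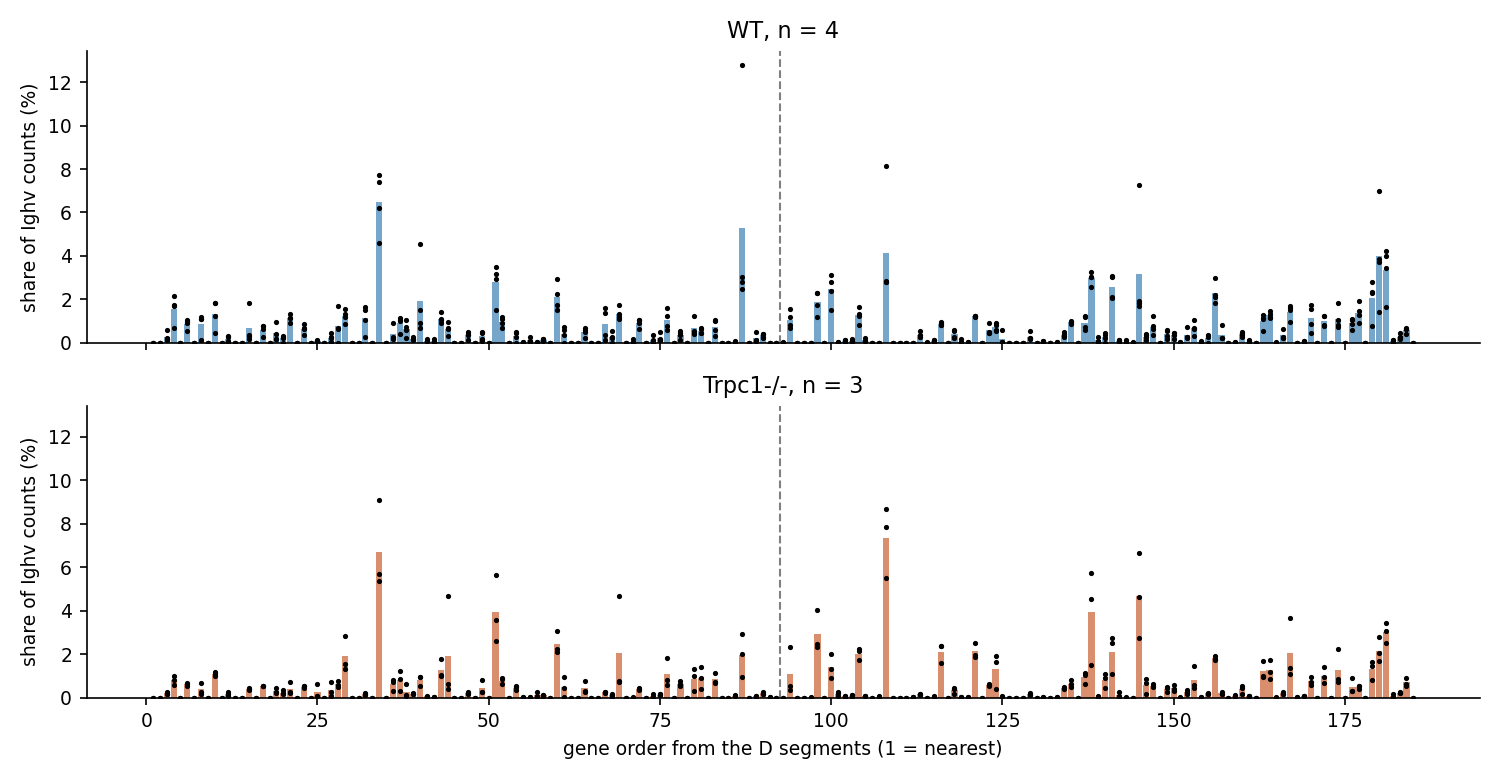
Share of Ighv counts (%) of each of the 185 Ighv genes by gene order from the D segments, in WT (n = 4) and Trpc1-/- samples (n = 3). Bars are group means, dots are samples and the dashed line divides D-proximal from distal genes; the tall bars are Ighv7-1, Ighv1-9, Ighv1-26 and Ighv8-8, and the highest dot is Ighv1-9 at 12.8% in WT replicate 4.

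Samples of one genotype were not more alike in Ighv use than samples of different genotypes by a clear margin. The dissimilarity within Trpc1-/- samples was 22.5%, 22.9% and 27.7% in the 3 pairs. Between the groups it ranged from 22.5% to 36.7% with a median of 28.2%, and within WT from 5.33% to 37.4% with a median of 27.8%. Without WT replicate 1 and without the pair of WT replicates 2 and 3, the remaining WT pairs had 28.7% and 29.2%, and the median between the groups was 28.4%.

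Genes of the B lineage were examined beside the V genes. Counts on heavy-chain constant genes summed to 302, 827, 913 and 859 CPM in WT replicates 1 to 4 and to 790, 827 and 890 CPM in Trpc1-/- replicates 1 to 3, so that WT replicate 1 was low here as in the V genes. The ratio of Ighv counts to constant-gene counts was 0.172, 0.202, 0.204 and 0.233 in WT and 0.203, 0.206 and 0.209 in Trpc1-/- samples. Ighm, the constant gene of IgM, was the most abundant of the list and held 63.7%, 46.3%, 46.1% and 45.0% of the constant-gene counts in WT and 51.2%, 61.9% and 44.0% in Trpc1-/- samples. The IgG genes held 2.43% in WT replicate 1, 17.1%, 17.5% and 26.5% in WT replicates 2 to 4, and 10.5%, 9.06% and 9.37% in Trpc1-/- replicates 1 to 3. WT replicate 4, with the largest leading V gene, had the highest IgG part.

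Of the 8 constant genes 7 were tested, the quasi-likelihood test of edgeR with Benjamini-Hochberg adjustment called 0, DESeq2 called 0, and 1, Ighd, had an unadjusted p under 0.05 (logFC 0.58). The logFC was above 0 for 4 and below 0 for 3 of them. Ighg2b, an IgG gene, was at 4.45, 99.8, 113 and 162 CPM in WT and at 45.0, 42.4 and 45.0 CPM in Trpc1-/- samples. It was singled out after its values were seen. Its logFC was -1.11, and without WT replicate 1 it was -1.50 with an adjusted p of 0.0214 by the quasi-likelihood test of edgeR with Benjamini-Hochberg adjustment. With all samples, the other IgG genes went both ways, with a logFC of -1.62 for Ighg1, -1.22 for Ighg3 and 0.25 for Ighg2c. Ighg2c was at 0.864, 26.4, 28.8 and 50.7 CPM in WT replicates 1 to 4 and at 31.3, 29.0 and 35.5 CPM in Trpc1-/- samples. When WT replicate 1 was left out, Ighg2c had a logFC below 0 as well, as 4 of the 7 tested constant genes then did. Ighe was at 0 counts in WT replicates 1 and 2 and in Trpc1-/- replicates 1 and 2.

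Among 10 plasma cell genes, 9 were tested, 0 were called by edgeR or DESeq2 and 1, Slamf7, had an unadjusted p under 0.05 in edgeR. The list had 5 genes with a logFC above 0 and 4 below (median 0.048). Jchain, which links IgM and IgA into polymers, was at 26.4, 86.5, 98.9 and 83.7 CPM in WT and at 105, 94.7 and 137 CPM in Trpc1-/- samples. The list summed to 198, 307, 334 and 297 CPM in WT and 332, 315 and 349 CPM in Trpc1-/- samples, with Xbp1 as its most abundant gene.

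All 10 B cell and precursor genes had a logFC above 0, with a median of 0.28. The groups did not overlap for 5 of them, Ms4a1, Cd79a, Blnk, Vpreb1 and Igll1, against 13.6% of all tested genes. By edgeR 0 were called and 0 had an unadjusted p under 0.05, and DESeq2 called 0. The list summed to 207, 279, 299 and 256 CPM in WT and 288, 341 and 314 CPM in Trpc1-/- samples, with Cd79b, a part of the B cell receptor, as its most abundant gene. Cd79a was at 16.9, 29.9, 31.6 and 23.8 CPM in WT and at 32.2, 36.9 and 34.3 CPM in Trpc1-/- samples.

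Of 12 genes of V(D)J recombination, 10 had a logFC above 0 (median 0.069), 0 were called by edgeR or DESeq2 and 0 had an unadjusted p under 0.05. Rag1 was at 40.8, 54.4, 58.0 and 38.1 CPM in WT and at 57.0, 55.1 and 37.6 CPM in Trpc1-/- samples, so that Rag1 RNA was present in both groups. The list summed to 523, 727, 784 and 710 CPM in WT and 917, 757 and 803 CPM in Trpc1-/- samples, with Hmgb2 the most abundant.

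Of 11 factors that act on the Ighv locus or its promoters, 9 had a logFC above 0 (median 0.12), 0 were called by edgeR or DESeq2 and 1 had an unadjusted p under 0.05. This was Pou2af1, the coactivator of octamer-binding factors at V gene promoters (logFC 0.33). The list summed to 740, 803, 801 and 817 CPM in WT and 864, 865 and 870 CPM in Trpc1-/- samples, with Ikzf1 the most abundant. Of the 4 genes of hypermutation and switching, 3 were tested, 0 were called by edgeR or DESeq2 and 1, Ung, had an unadjusted p under 0.05. The list summed to 75.0, 93.4, 96.8 and 90.6 CPM in WT and 111, 98.7 and 97.2 CPM in Trpc1-/- samples, with Msh6 the most abundant.

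The tissue markers place these B-lineage genes in a mixed sample. Chondrocyte genes summed to 4687, 4597, 4615 and 4341 CPM in WT and 2475, 4758 and 2658 CPM in Trpc1-/- samples, with Col2a1 the most abundant. All 6 had a logFC below 0 (median -0.42), 0 were called by edgeR or DESeq2, and 1, Comp, had an unadjusted p under 0.05. Osteoblast genes, led by Col1a1, summed to 13369, 9454, 8212 and 7122 CPM in WT and 5633, 9856 and 5806 CPM in Trpc1-/- samples, with 0 of 4 called by edgeR or DESeq2 and 0 at an unadjusted p under 0.05.

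Erythroid genes, led by Hbb-bs, summed to 10813, 19429, 21693 and 17531 CPM in WT and 27531, 24938 and 34776 CPM in Trpc1-/- samples. All 4 had an unadjusted p under 0.05, against 10.0% of all tested genes, and did not overlap between the groups, against 13.6%. By edgeR 0 were called and by DESeq2 2, against 1.79% of all tested genes. Neutrophil genes, led by S100a9, summed to 2964, 8203, 9605 and 10663 CPM in WT and 10012, 7766 and 10822 CPM in Trpc1-/- samples, with 0 of 4 called by edgeR or DESeq2 and 0 at an unadjusted p under 0.05. T cell genes, led by Cd4, summed to 8.28, 13.6, 15.7 and 16.3 CPM in WT and 17.3, 16.5 and 17.2 CPM in Trpc1-/- samples, with 0 of 4 called by edgeR or DESeq2 and 2, Cd3e and Cd3d, at an unadjusted p under 0.05.

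Among the other lists, the groups did not overlap for 3 of the 11 locus factors, 2 of the 3 hypermutation genes tested, 1 of the 9 plasma cell genes tested, 1 of the 6 chondrocyte genes and 1 of the 4 T cell genes, against 13.6% of all tested genes. They overlapped for all tested constant, recombination, osteoblast and neutrophil genes.

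WT replicate 1 was the lowest sample in the summed level of the constant, plasma cell, B cell, recombination, locus factor, hypermutation, erythroid, neutrophil and T cell genes and the highest in the osteoblast genes. Markers of marrow and blood thus moved with its low Ighv level. Without it, the median logFC was -0.14 in the constant genes, -0.022 in the plasma cell genes, 0.17 in the B cell genes, 0.085 in the recombination genes, 0.096 in the locus factors and 0.16 in the hypermutation genes. It was -0.45 in the chondrocyte, -0.29 in the osteoblast, 0.53 in the erythroid, -0.054 in the neutrophil and 0.30 in the T cell genes, and edgeR called Ighg2b alone. The medians of the constant, plasma cell and neutrophil genes thus differed in sign from those of all samples, which were 0.25, 0.048 and 0.20. With WT replicates 2 and 3 as 1 sample, the medians had the same sign as with all samples in each list. The part of these markers in the differences between samples in Ighv level or use was not tested.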

How the data were processed

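RNA-Seq was performed on 7 pooled samples of knee cartilage. Per the labels and methods, the authors depleted ribosomal RNA, trimmed reads with Cutadapt 2.5, aligned stranded read pairs to GRCm38 with HISAT2 2.1.0 and estimated coverage with StringTie 2.0.3, from which the deposited estimated counts per gene were made. The values were already whole numbers, and rounding changed none.

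Counts were tested in R 4.3.3 with edgeR 4.0.16 (TMM, quasi-likelihood, genotype alone, genes over 1 CPM in at least 2 samples, Benjamini-Hochberg over all tested genes) and with DESeq2 1.42.0 at a threshold of 0.05. Both were tested on simulated data. The SE given with a logFC was calculated as the size of the logFC divided by the square root of the edgeR F statistic, and was not estimated by the fit itself. Shares are counts of a gene divided by all Ighv counts of a sample. Positions, exon lengths and sequences came from GENCODE M21, and alignments from Biopython. Named members are the most used gene of any sample, the 10 largest mean shares, the 5 largest ratios of highest to median share at a mean share of at least 0.5%, the 3 highest and 3 lowest logFC, called members and those nearest the count rule. Ighv1-22, Ighv1-39, Ighv1-36, Ighv1-19, Ighv14-1 and genes of the sequence sets outside that rule were named after their values were seen. Members and gene lists were chosen with earlier results of these data known.

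The labels give 4 WT and 3 Trpc1-/- samples, which were used, whereas the methods give 3 and 4. Library totals ranged from 52142451 to 118254070, and 0 columns were unmatched. Separate numbers in the labels, read here as mouse numbers, mark the samples, and p-values measure the spread between these pools. Alternatives were DESeq2, 2 other normalizations, 2 other filters, the replicate block, mouse numbers in the 1300s alone, other rows and indices, exon length, each sample left out in turn, and WT replicates 2 and 3 as 1 sample, of which the last, exon length, the DESeq2 fits with fewer samples or a block, family, locus and gene-list values with fewer samples, and the split of members by the groups through which they passed the filter were added after seeing the data.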

Additional observations from a re-analysis of the deposited data

Results flagged for a closer look

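In the WT group of 4 samples, 7 of the 51 sets of values examined had 1 sample far from the other 3, by the gap to its neighbour over the whole range, where chance gives about 1 in 20 such sets. Groups of 3 were not examined. The sets overlap, since a leading gene is part of several, and WT replicates 2 and 3 with their like Ighv use narrow the rest of the group.

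WT replicate 4 was set apart by the share of Ighv1-9, 12.8%, which is also its leading share, by Ighv8-8 at 7.26% and by Ighv5-9 at 1.83%. WT replicate 1 was set apart by the share of Ighv1-26, 8.16%, by the Ighv14 family at 6.45% and by the summed level of the heavy-chain constant genes, 302 CPM. Why these libraries differ was not tested.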

How the results depend on the processing

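The count of called genes was 0 over all tested genes and 0 members in edgeR with RLE or total-count scaling, with no filter or filterByExpr, in the 1300s alone and with WT replicates 2 and 3 as 1 sample. DESeq2 called 294 genes and 3 members. With each sample left out in turn, edgeR called between 0 and 52 genes and between 0 and 1 members, and DESeq2 between 37 and 892 genes and between 1 and 15 members. With WT replicates 2 and 3 as 1 sample, DESeq2 called 90 genes and 1 member. The summed share of the 5 most used genes differed by 2.52 percentage points, against -1.49 for the leading gene. The cause of these shifts was not tested.

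Same-numbered samples come from different mice, and the correlations of their deviations over genes were -0.45, -0.34 and -0.0044. Pairs with unlike numbers ranged from -0.46 to 0.48. The deviations were taken from the mean of each small group and so depend on each other, and these values cannot decide whether the numbers pair the samples. The replicate block covered replicates 1 to 3 of each group, since WT replicate 4 has no same-numbered Trpc1-/- sample. In that fit edgeR called 0 genes and 0 members, with 972 genes under an unadjusted p of 0.05. DESeq2 called 54 genes and 3 members, Ighv1-26, Ighv1-34 and Ighv8-8. As the mean of the paired differences, the summed level differed by 0.55 (log2), the effective number by -7.61 and the leading share by -0.23.

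Of 42 named genes, 35 kept the sign of their logFC in every fit. Ighg2c, which was not among the 42, turned below 0 without WT replicate 1. In edgeR, the others of the 42 turned as follows, with adjusted p-values far from the threshold. With the replicate block, Ighv1-55 was at 0.035, Ighv1-81 at 0.085, Ighv1-82 at 0.39 and Rag1 at -0.044. In the 1300s alone, Ighv1-55 was at 0.21, Ighv1-81 at 0.085, Ighv1-82 at 0.44 and Ighv1-9 at 0.10. With WT replicates 2 and 3 as 1 sample, Ighv1-55 was at 0.014 and Ighv1-82 at 0.029. Xbp1 was at -0.016 with total counts. With each sample left out in turn, Ighv1-55 ranged from -0.46 to 0.16, Ighv1-82 from -0.46 to 0.097, Ighv7-1 from -0.050 to 0.45, Xbp1 from -0.049 to 0.091 and Rag1 from -0.047 to 0.23.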
